A study of Mus musculus with 2 samples.

Results

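Iron handling was followed through 10 genes of uptake, storage, export and haem breakdown: Tfrc, Slc11a1, Cd163, Hp, Fth1, Ftl1, Slc40a1, Cp, Hmox1 and Blvrb. They were chosen by name for their roles, with earlier results of these data known, and are 10 of the 15247 genes measured. The cells were mCherry+ heart cells, sorted by flow cytometry from p16-FDR mice of strain C57BL/6, aged 20 to 22 months. In these mice an FLP recombinase, and a diphtheria toxin receptor fused with the red fluorescent protein mCherry, report on the p16 gene Cdkn2a. The labels give 2 samples of this 1 group, profiled with a droplet 3′ kit that counts RNA molecules by unique molecular identifiers (UMIs). No mCherry-negative cells were analysed here, so the comparisons are between cell classes of the same libraries. Cell names carry the prefixes Heart1 and Heart2, which serve as library names. Neither prefix can be matched to a sample record, since the record titles differ by a 6-digit number that the labels leave unexplained. The labels do not state whether the libraries came from separate animals.

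Cells take up iron bound to transferrin through the transferrin receptor, and macrophages also recover it from the haemoglobin of old red cells. Haem oxygenase opens the haem ring and releases the iron, ferritin stores it in a shell of heavy and light chains, and ferroportin is the one known exporter of the free ion. Iron regulatory proteins bind stem-loops called iron-responsive elements when iron is scarce; in a 5′ UTR they block translation, and in a 3′ UTR they keep the RNA from decay.

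Those elements are shown because genes that carry them can answer to iron after transcription. RNA counts can reflect that step for elements in a 3′ UTR, which act on RNA decay, and not for those in a 5′ UTR. The search does not show that members without a match lack such control. The search asked for a bulged C, 5 bases, the loop CAGTGN and 5 bases paired with the first 5, on the strand of the transcript, in the UTRs of GENCODE M21 protein-coding transcripts (GRCm38). Of the 10 genes, 4 held such a stem-loop. Among all genes with an annotated UTR, 0.148% (31 of 20916) held one in a 5′ UTR and 0.613% (129 of 21039) in a 3′ UTR. A match describes the letters and is no measurement of binding. The 30 bases around each loop are given 5′ to 3′, with the 6 loop bases in capitals. The ferritin and ferroportin elements lie in 5′ UTRs and the 4 Tfrc elements in the 3′ UTR.
Fth1, chr19:9982731-9982760, plus strand: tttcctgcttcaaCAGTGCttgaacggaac
Ftl1, chr7:45459779-45459808, minus strand: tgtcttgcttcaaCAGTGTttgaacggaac
Slc40a1, chr1:45925465-45925494, minus strand: ccaacttcagctaCAGTGTtagctaagttt
Tfrc, chr16:32631218-32631247, plus strand: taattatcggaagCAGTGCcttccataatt
Tfrc, chr16:32631597-32631626, plus strand: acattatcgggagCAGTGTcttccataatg
Tfrc, chr16:32631662-32631691, plus strand: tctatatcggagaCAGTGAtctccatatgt
Tfrc, chr16:32631709-32631738, plus strand: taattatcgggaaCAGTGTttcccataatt

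Cells were gated by 8 macrophage markers (Lyz2, C1qa, C1qb, C1qc, Adgre1, Mrc1, Tyrobp and Ctss) and 8 fibroblast markers (Col1a1, Col1a2, Col3a1, Dcn, Lum, Pdgfra, Dpt and Col6a3). A gated cell had a UMI of at least 4 markers of its set and at least 5 times as many UMIs of it as of the other. None of the 10 iron genes was used. Heart1 gave 37 macrophage-gated and 206 fibroblast-gated cells of 266, and Heart2 gave 208 and 940 of 1160. Median depths were 8133 and 9569 UMIs in macrophage-gated cells of Heart1 and Heart2, and 11856 and 8771 in fibroblast-gated cells. Levels are UMIs summed over cells and scaled to 1000000 UMIs (CPM). A 3′ UMI stands for 1 captured RNA end whatever the length of the transcript, so levels of different genes are set side by side on that scale. Intervals are exact at 95% and cover counting error only. The summed fibroblast markers stood at 17.3 and 42.4 CPM in macrophage-gated cells and at 27652 and 28861 CPM in fibroblast-gated cells. The summed macrophage markers stood at 50451 and 52069 CPM in macrophage-gated cells and at 9.94 and 17.7 CPM in fibroblast-gated cells. The haemoglobin genes stood at 0 and 5.85 CPM in macrophage-gated cells and at 2.95 and 4.61 CPM in fibroblast-gated cells. The summed cardiomyocyte markers stood at 86.4 and 76.0 CPM in macrophage-gated cells and at 42.4 and 15.96 CPM in fibroblast-gated cells, and their part in the results was not tested. The libraries shared 0 cell barcodes.

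Macrophage-gated cells carried more RNA of 7 of the 10 iron genes in both libraries and less of 2, Hp and Cp. The 7 encode the haemoglobin receptor, the endosomal iron transporter, both ferritin chains, ferroportin and both haem breakdown enzymes. The test also called the transferrin receptor gene Tfrc higher, which in Heart1 rested on 2 UMIs in macrophages against 5 in fibroblasts and lost its call without the library block. The test was limma on log2(CPM + 5) of the summed cells, with library as a block and Benjamini-Hochberg adjustment over the 8794 genes that averaged at least 10 CPM. All 10 iron genes passed that filter, Tfrc at a mean of 10.2 CPM that came mostly from Heart2 macrophages. It called 17.1% of these genes higher in macrophage-gated cells and 25.7% lower, 42.8% in either direction. At least 2-fold in both libraries, 7 of the iron genes were higher and 2 lower, against 10.9% and 14.9% of all genes tested. The median difference of the iron genes was 2.04 (log2), and that of all genes was -0.16. As the 10 were chosen with earlier results known, these figures describe the chosen genes and test no set. With median-ratio scaling the median of all genes was -0.08, and the calls of the iron genes were again 8 higher and 2 lower. With 1 residual degree of freedom against 17.9 from other genes, the errors rest mostly on pooled spread between these libraries, which may be technical. The scale also understates the change of genes near 5 CPM.

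**Figure D1:**
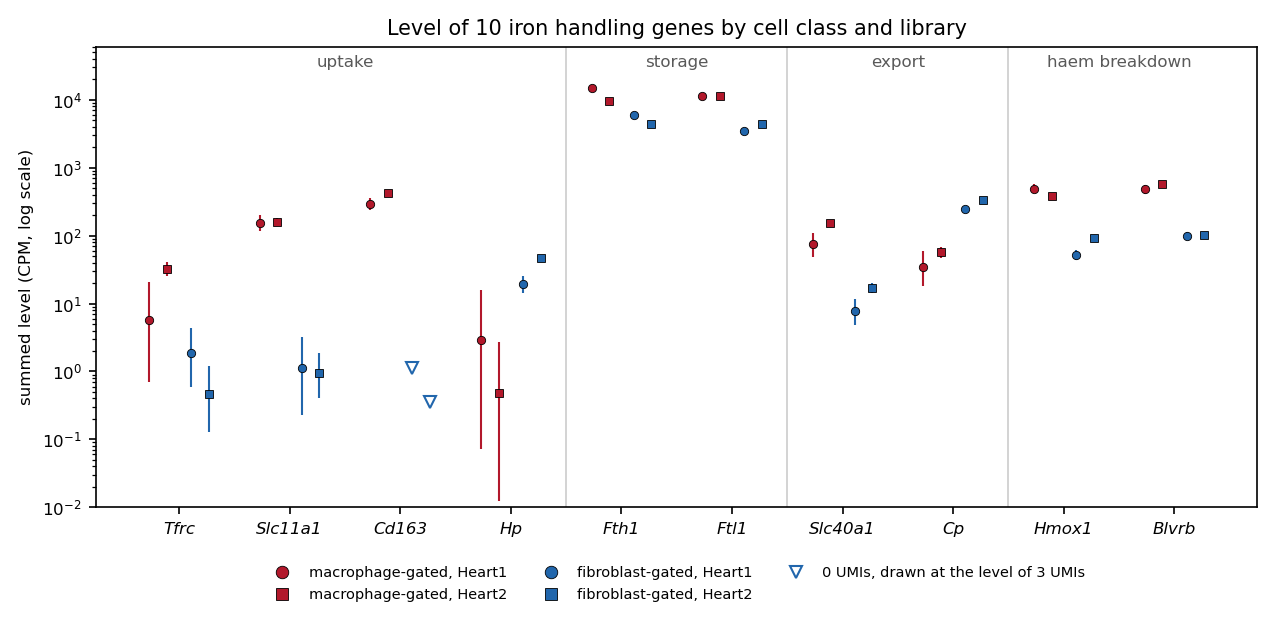
Summed level of each iron gene in CPM (log axis) in macrophage-gated (red) and fibroblast-gated (blue) cells of Heart1 (circles) and Heart2 (squares). Bars are 95% exact Poisson intervals of the counts. Open triangles mark 0 UMIs, drawn at the level of 3 UMIs. Ferritin genes are the most abundant in both classes, and Hp and Cp are the genes with blue above red.

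Among the uptake genes, Cd163 set the classes furthest apart. Cd163 (chromosome 6, 124304656 to 124330527) encodes the macrophage receptor for haemoglobin bound to haptoglobin. It stood at 291 CPM in Heart1 and 420.4 CPM in Heart2 in macrophage-gated cells, with no UMI in the 206 and 940 fibroblast-gated cells. Against a floor of 3 UMIs per library, it was at least 263-fold higher in Heart1 and at least 1185-fold higher in Heart2. The exact 95% lower limits of the ratio, from the counts alone, were 210.3 and 962. The fitted difference, which depends on the added 5 CPM, was 6.15 ± 0.27 (SE, limma adjusted p = 2.10e-13).

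Slc11a1 (chromosome 1, 74375195 to 74386062) encodes NRAMP1, which moves iron and other metal ions out of phagosomes. Only its RNA was counted, and whether the protein works in these mice was not tested. The RNA level was 155.6 and 161 CPM in macrophage-gated cells, against 1.10 and 0.946 CPM in fibroblast-gated cells. Fibroblast-gated cells held 3 and 8 UMIs of Slc11a1 in all. The class ratio was 140.8 in Heart1 (45.7 to 704) and 170.5 in Heart2 (85.5 to 398). The fitted difference was 4.76 ± 0.28 (limma adjusted p = 1.88e-11).

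Tfrc (chromosome 16, 32608920 to 32632794), the receptor for transferrin, was rare and uneven. Its level was 5.76 CPM in macrophage-gated cells of Heart1, from 2 UMIs, and 32.6 CPM in those of Heart2, from 67 UMIs. In fibroblast-gated cells it had 5 UMIs (1.84 CPM) and 4 UMIs (0.473 CPM). The class ratio was 3.13 in Heart1, with an interval that took in 1 (0.298 to 19.1), and 69.0 in Heart2 (25.7 to 261). The fitted difference was 1.72 ± 0.52 (limma adjusted p = 0.0116) and came mostly from Heart2 (2.78), with 0.65 in Heart1. Without the library block Tfrc lost its call (limma adjusted p = 0.0761). Of the 8 genes called higher, it was the one not 2-fold apart in both libraries on the log2(CPM + 5) scale.

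Hp (chromosome 8, 109575128 to 109579172) encodes haptoglobin, the plasma protein that binds free haemoglobin and that Cd163 takes up. Macrophage-gated cells held 1 UMI in each library (2.88 and 0.487 CPM). Fibroblast-gated cells held 52 UMIs in 7 of 206 cells (19.2 CPM) and 400 UMIs in 53 of 940 cells (47.3 CPM). Hp was lower in macrophage-gated cells, with a log2 difference of -2.43 ± 0.42 (limma adjusted p = 8.48e-05). Its RNA was packed into few fibroblasts: 1 cell held 16 of the 52 UMIs in Heart1 and 1 cell held 119 of the 400 in Heart2.

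Both ferritin chains were higher in macrophage-gated cells. Fth1 (chromosome 19, 9980598 to 9985098) encodes the heavy chain, which oxidises iron as it enters the shell. It stood at 14964 and 9673 CPM in macrophage-gated cells, against 6008 and 4430.3 CPM in fibroblast-gated cells, a difference of 1.22 ± 0.09 (limma adjusted p = 7.36e-10). Ftl1 (chromosome 7, 45457944 to 45459884) encodes the light chain, which helps the iron core to form. It stood at 11291 and 11405 CPM in macrophage-gated cells, against 3529 and 4361 CPM in fibroblast-gated cells, a difference of 1.53 ± 0.10 (limma adjusted p = 6.48e-11). Macrophage-gated levels lay above fibroblast-gated levels in both libraries for both chains. The table also has a row for the near-identical copy Ftl1-ps1, at 40.3 and 45.3 CPM in macrophage-gated and 12.5 and 15.6 CPM in fibroblast-gated cells, so some Ftl1 reads may be counted there.

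Together the ferritin genes made up 2.63% and 2.11% of the UMIs of macrophage-gated cells, and 0.954% and 0.879% of those of fibroblast-gated cells. A macrophage thinned to 3000 UMIs held a median of 22 Fth1 UMIs in Heart1 and 23 in Heart2, and a fibroblast 16 and 12. The spread among cells was wide: between the 10th and 90th percentile, macrophages held 11 to 61.8 Fth1 UMIs in Heart1 and 12.7 to 46 in Heart2. For Ftl1 the medians were 29 and 30.5 in macrophages and 10 and 11 in fibroblasts. A single Heart1 macrophage held 1267 of the 5194 Fth1 UMIs of its class (24.4%). Without it the macrophage-gated level in Heart1 was 11933 CPM, still above the 5935 CPM of fibroblast-gated cells without their own top cell.

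The balance of the chains differed between libraries. The ratio of Fth1 to Ftl1 UMIs was 1.33 (1.27 to 1.38) in macrophage-gated cells of Heart1 and 0.848 (0.832 to 0.864) in those of Heart2. In fibroblast-gated cells it was 1.70 (1.66 to 1.75) in Heart1 and 1.02 (1.001 to 1.03) in Heart2. Within each library the ratio was lower in macrophages, and in each class it was higher in Heart1. In single cells the light chain led in most macrophages: Fth1 outnumbered Ftl1 in 37.8% and 35.1% of them, and in 71.8% and 50.4% of fibroblasts. Without the macrophage richest in Fth1, the Heart1 macrophage ratio was 1.09.

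Export split between its members. Slc40a1 (chromosome 1, 45908068 to 45926523) encodes ferroportin. It stood at 74.9 CPM (48.9 to 109.8) and 151.5 CPM (135 to 169) in macrophage-gated cells, against 7.73 CPM (4.79 to 11.8) and 16.8 CPM (14.1 to 19.8) in fibroblast-gated cells. The classes did not overlap, and the ratio was 9.69 in Heart1 and 9.02 in Heart2. The fitted difference was 2.75 ± 0.26 (limma adjusted p = 3.03e-08). Of the 26 Slc40a1 UMIs in Heart1 macrophages 13 came from 1 cell, and without it their level was 37.9 CPM. Leaving out the top cell of each class and library gave a difference of 2.26.

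Cp (chromosome 3, 19957054 to 20009145) encodes ceruloplasmin, the copper ferroxidase that oxidises iron leaving through ferroportin so that transferrin can bind it. Cp went the other way: 34.6 CPM (17.9 to 60.4) and 57.5 CPM (47.6 to 68.8) in macrophage-gated cells, against 250.8 CPM (232 to 270.4) and 337 CPM (325 to 349.7) in fibroblast-gated cells. The fitted difference was -2.57 ± 0.22 (limma adjusted p = 5.18e-09). The RNA of the exporter was thus more abundant in one class and that of this ferroxidase in the other. In Heart2 macrophages Cp stood at 57.5 CPM beside 42.4 CPM of all 8 fibroblast markers, and in Heart2 fibroblasts at 337 CPM beside 28861 CPM. The part of free RNA in the macrophage level was not tested.

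Both haem breakdown enzymes were higher in macrophage-gated cells. Hmox1 (chromosome 8, 75093621 to 75100589) encodes the inducible haem oxygenase. It stood at 493 and 380.0 CPM in macrophage-gated cells, against 52.7 and 91.9 CPM in fibroblast-gated cells, a difference of 2.55 ± 0.24 (limma adjusted p = 2.25e-08). The class ratio was 9.35 (7.45 to 11.8) in Heart1 and 4.14 (3.74 to 4.57) in Heart2. Blvrb (chromosome 7, 27447978 to 27466144) encodes biliverdin reductase B, which reduces biliverdin and flavins. It stood at 487 and 585 CPM in macrophage-gated cells, against 98.7 and 101.8 CPM in fibroblast-gated cells, a difference of 2.36 ± 0.19 (limma adjusted p = 2.74e-09).

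Hmox1 RNA was concentrated in few cells and Blvrb RNA was not. The 10% of macrophages with most Hmox1 UMIs held 82.5% of those of their class in Heart1 and 56.8% in Heart2. One Heart2 fibroblast-gated cell held 353 of the 777 Hmox1 UMIs of its class (45.4%). That cell had 79999 UMIs, the most of any cell, with 1000 Fth1, 1322 Ftl1 and 55 Blvrb UMIs. It held 291 UMIs of fibroblast markers beside 2 of macrophage markers. Its fibroblast marker share was low for its class: the Heart2 fibroblast with most Cp held 357 of them in 12026 UMIs. Whether the cell of 79999 UMIs is a fibroblast was not tested. Without it the Hmox1 level of Heart2 fibroblasts was 50.6 CPM, against 42.1 CPM in Heart1 fibroblasts without their own top cell, which held 29 of 143 UMIs. Without the top cell of their own class, Heart1 macrophages stood at 319 CPM and Heart2 macrophages at 337 CPM.

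The share of cells with a UMI was compared after thinning each cell to 3000 UMIs, which left out no cell. Fth1 and Ftl1 were found in all 37 and 208 macrophage-gated cells. They were also found in all fibroblast-gated cells except for Ftl1 in Heart2, at 99.8%. Blvrb was found in 56.8% (39.5 to 72.9%) and 75.5% (69.0 to 81.2%) of macrophages, against 25.2% (19.5 to 31.7%) and 24.1% (21.4 to 27.02%) of fibroblasts. Hmox1 was found in 32.4% (18.0 to 49.8%) and 47.1% (40.2 to 54.1%) of macrophages, against 8.25% (4.88 to 12.9%) and 12.98% (10.9 to 15.3%) of fibroblasts.

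The receptor and exporter genes marked a fraction of the macrophages. Cd163 was found in 43.2% (27.1 to 60.5%) and 37.0% (30.4 to 44.0%) of macrophages. In fibroblasts 0 of 206 and 0 of 940 cells had a UMI, which at 3 counts limits the share with a UMI to at most 1.46% and 0.319%. The exact 95% intervals reached 1.77% and 0.392%. Slc11a1 was found in 27.03% and 39.4% of macrophages, against 0.485% and 0.319% of fibroblasts. Slc40a1 was found in 10.8% (3.03 to 25.4%) and 22.6% (17.1 to 28.9%) of macrophages, against 1.94% (0.531 to 4.90%) and 3.83% (2.70 to 5.26%) of fibroblasts. The class intervals of Slc40a1 overlapped in Heart1 and did not in Heart2. Cp was found in 8.11% and 13.9% of macrophages, against 45.6% and 58.7% of fibroblasts.

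Unthinned, with more UMIs per cell, the shares were larger. Hmox1 was then found in 45.9% and 75.5% of macrophages, against 27.7% and 31.9% of fibroblasts. Blvrb was found in 83.8% and 92.8% of macrophages, against 69.9% and 55.1% of fibroblasts. The macrophage gene Lyz2, at 25558 and 23276 CPM in macrophages, had a UMI in 6.80% and 7.34% of unthinned fibroblasts. Hmox1 (493 and 380.0 CPM), Blvrb (487 and 585 CPM) and Slc11a1 (155.6 and 161 CPM) were far less abundant in macrophages, as was Tfrc. The Lyz2 share is therefore not a like measure of free RNA for these genes. Unthinned Slc11a1 and Tfrc shares in fibroblasts were 1.46% and 0.745%, and 2.43% and 0.426%. These rest on 3 to 8 UMIs. The part of free RNA in any of these shares was not tested.

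**Figure D2:**
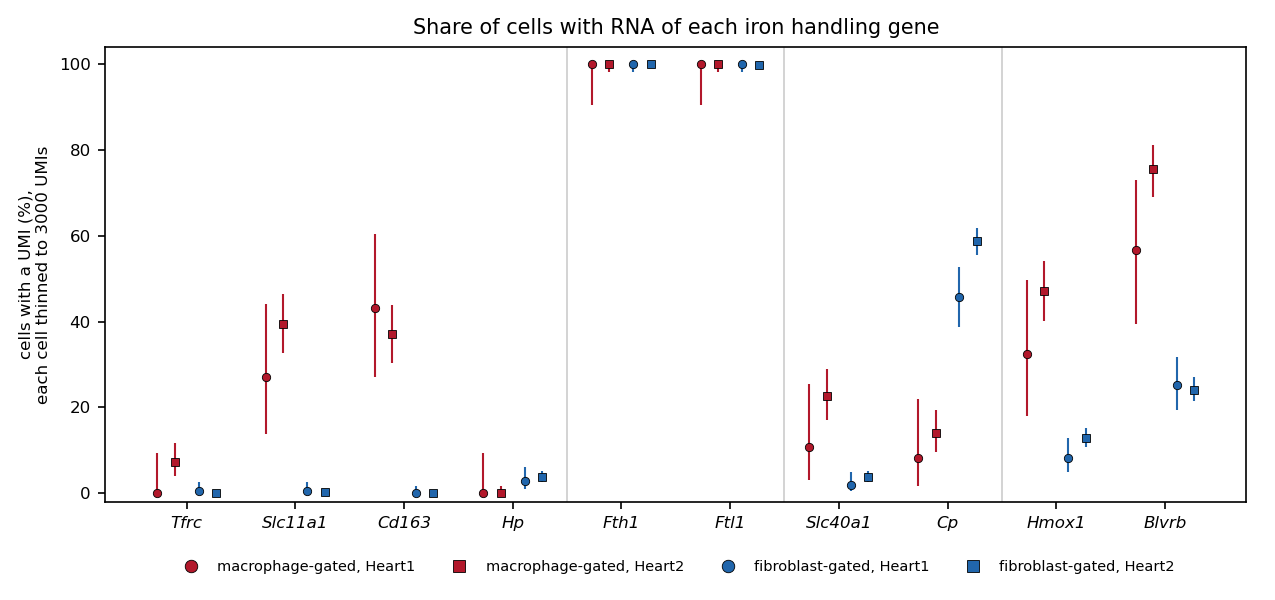
Share of cells with at least 1 UMI of each iron gene after thinning each cell to 3000 UMIs, in macrophage-gated (red) and fibroblast-gated (blue) cells of Heart1 (circles) and Heart2 (squares). Bars are 95% exact binomial intervals. Ferritin genes reach 99.8% or more in both classes, Cd163, Slc11a1, Slc40a1, Hmox1 and Blvrb are more frequent in macrophages, and Cp is more frequent in fibroblasts.

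Levels were also set side by side between libraries, as the ratio of Heart2 to Heart1 with its counting interval. Slc40a1 was higher in Heart2 in both classes, with a ratio of 2.02 (1.35 to 3.15) in macrophages and 2.17 (1.37 to 3.62) in fibroblasts. By summed level, Fth1 was lower in Heart2 in both classes. Its ratio was 0.646 (0.627 to 0.667) in macrophages and 0.737 (0.724 to 0.751) in fibroblasts. In macrophages part of this rests on 1 cell: without the top cell of each library, Fth1 stood at 9475 CPM in Heart2 and 11933 CPM in Heart1. The median thinned macrophage held 23 Fth1 UMIs in Heart2 and 22 in Heart1, so the typical macrophage was not lower in Heart2. Hmox1 differed in opposite directions, with 0.771 (0.653 to 0.916) in macrophages and 1.74 (1.46 to 2.10) in fibroblasts. Both differences rest on single cells: without the top cell of each class and library, Hmox1 stood at 337 CPM in Heart2 and 319 CPM in Heart1 macrophages, and at 50.6 CPM in Heart2 and 42.1 CPM in Heart1 fibroblasts. Each library is 1 sample, so these ratios have no replicate check.

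A wider list of 62 genes that act in the same pathways was set beside the 10. Of these, 45 passed the filter of 10 CPM, of which 6 were higher and 10 lower in macrophage-gated cells, and 29 were not called. The median difference of the 45 was -0.14 (log2), near the median of all genes. The share called higher, 6 of 45, was near or below the 17.1% of all genes, and 10 of 45 near the 25.7%. Unlike the 10 genes, the wider list did not lie on the macrophage side. Both lists were chosen with earlier results known, so the contrast describes these lists and not iron genes at large.

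In the wider list the other haem breakdown genes were both higher in macrophage-gated cells. Hmox2, the constitutive haem oxygenase, stood at 158 and 260 CPM in macrophages, against 65.2 and 58.6 CPM in fibroblasts (log2 difference 1.64 ± 0.24, limma adjusted p = 9.18e-06). Blvra, the main biliverdin reductase, differed by 1.49 ± 0.25. Hfe, which tunes the sensing of transferrin iron, differed by 1.61 ± 0.24. Bach1, the haem-binding repressor of Hmox1 transcription, differed by 1.20 ± 0.26. Ncoa4, which delivers ferritin to the lysosome for iron release, differed by 1.10 ± 0.26. Limma adjusted p-values of these 4 lay at or below 0.00192. The call of Ncoa4 was lost without the block (limma adjusted p = 0.0704), and those of Ncoa4 (0.183) and Blvra (0.354) in thinned cells.

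Of 8 uptake genes tested, 3 were lower in macrophage-gated cells and 1 was higher, against 25.7% lower and 17.1% higher of all genes. Steap4, a metalloreductase, stood at 0 and 1.46 CPM in macrophages, against 60.03 and 91.98 CPM in fibroblasts (-3.80 ± 0.32, limma adjusted p = 5.36e-09). Steap3, which reduces iron in the transferrin endosome, stood at 20.2 and 25.8 CPM in macrophages, against 116.7 and 184 CPM in fibroblasts (-2.45 ± 0.24). Lrp1, the receptor for haem bound to haemopexin, differed by -1.41 ± 0.18. Trf, the gene of transferrin and named after its values were seen, was the higher one (1.36 ± 0.34, limma adjusted p = 0.00249). It stood at 556 and 1311 CPM in macrophages, against 529 and 204 CPM in fibroblasts, so its difference lay in Heart2 (2.65) and not in Heart1 (0.07). Its call was lost without the block (limma adjusted p = 0.111).

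Bmp6, the signal that raises hepcidin in the liver, had 0 and 0.487 CPM in macrophages, against 43.5 and 62.9 CPM in fibroblasts (-3.45 ± 0.36, limma adjusted p = 1.09e-07). Neo1, neogenin, a receptor in that signalling, differed by -1.10 ± 0.31, and lost its call without the block (limma adjusted p = 0.0716). Nr1h3, the sterol receptor LXR alpha, differed by -1.43 ± 0.29. Gpx4, the lipid peroxide reductase that holds back ferroptosis, differed by -0.61 ± 0.16. Of haem synthesis genes, 1 of 6 tested was called lower, Alad (-1.28 ± 0.33). Of mitochondrial iron genes, Cisd1 (-0.90 ± 0.25) and Glrx5 (-0.82 ± 0.28) were called lower among 8. These shares lay near or below the 25.7% of all genes called lower. The calls of Alad, Cisd1 and Glrx5 were lost in thinned cells, with limma adjusted p-values of 0.0980, 0.225 and 0.152. Glrx5 was also not called without the block (limma adjusted p = 0.121).

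Correlations across cells were taken on the natural log of 1 plus UMIs per 10000, in cells thinned to 3000 UMIs, for pairs found in 10% of cells. In macrophages of Heart2 (208 cells), the 28 pairs ran from -0.02 to 0.34 with a median of 0.14. The highest r was that of the ferritin chains (0.34), followed by Cd163 with Slc40a1 (0.31) and Ftl1 with Blvrb (0.30). Ftl1 also had an r of 0.29 with Hmox1 and 0.28 with Slc40a1. In macrophages of Heart1 (37 cells), the 21 pairs ran from -0.50, for Cd163 with Fth1, to 0.61, for the ferritin chains. In that library Cd163 with Slc40a1 stood at 0.06 and Ftl1 with Blvrb at 0.00.

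On this measure the ferritin chains were the pair with the highest r in macrophages of both libraries. They also led in fibroblasts, at 0.16 among 6 pairs in Heart1 (206 cells) and 0.25 among 10 pairs in Heart2 (940 cells). Other measures gave another order in 2 of the 4 sets of cells. In Heart2 macrophages Spearman's rho was 0.30 for Cd163 with Slc40a1, 0.29 for Ftl1 with Slc40a1 and 0.27 for the ferritin chains, and in unthinned cells r was 0.51 for Ftl1 with Blvrb and 0.38 for the chains. In Heart1 fibroblasts unthinned r was 0.23 for Ftl1 with Cp, 0.19 for Fth1 with Blvrb and 0.16 for the chains, and rho was 0.09 for the chains and for Fth1 with Blvrb. All cells of a library share its preparation, and the pair shares depth: with the log of total UMIs, Fth1 and Ftl1 had r values of 0.54 and 0.60 in Heart1 macrophages and 0.33 and 0.28 in Heart2 macrophages. In fibroblasts these were -0.00 and -0.09 in Heart1 and 0.21 and 0.22 in Heart2. The part of depth in the pair was not tested.

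**Figure D3:**
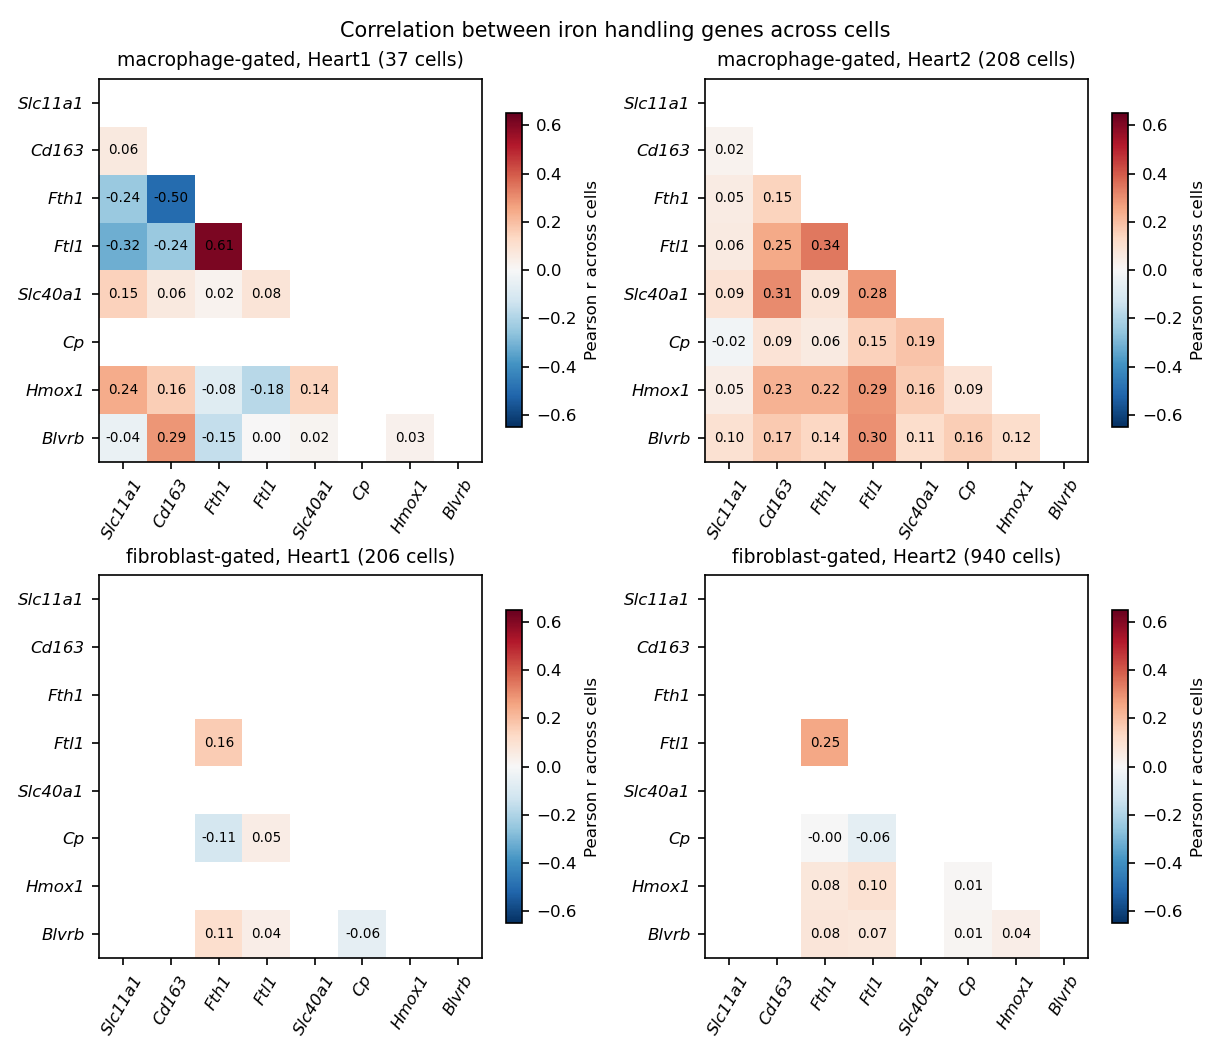
Pearson r across cells between iron genes found in at least 10% of thinned cells, for macrophage-gated (upper row) and fibroblast-gated (lower row) cells of Heart1 (left) and Heart2 (right). Blank squares are pairs with a gene under 10%. On these thinned values the Fth1 with Ftl1 square holds the highest r of each panel, from 0.16 to 0.61.

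The genes most like a member were picked by r in Heart2 and are given with their r in Heart1, which the choice did not use. With Slc40a1 in macrophages the first was Igf1, a growth factor gene (0.38 in Heart2 and 0.50 in Heart1), followed by Cltc (0.34 and 0.07), Cd163 and Stab1 (0.29 and 0.17). With Hmox1 the first were Wfdc17 (0.35 and 0.02), Ninj1 (0.33 and 0.25), Cebpb (0.32 and 0.09), Folr2 (0.30 and -0.07) and Ier3 (0.30 and 0.54). With Ftl1 the first were Selenop (0.46 and -0.07), Ninj1 (0.44 and 0.19) and Pf4 (0.37 and -0.09), then Fth1 and Ccl24 (0.34 and -0.09). In fibroblasts Fth1 went with the ribosomal protein genes Rps4x (0.25 and 0.24) and Rpl39 (0.23 and 0.27), with Cst3 (0.25 and 0.18) and with Ftl1. Cp went with Dpep1 (0.21 and 0.30), Lpl (0.18 and 0.14), Spon1 (0.18 and 0.10), Ogn (0.17 and 0.17) and the gating marker Dcn (0.17 and 0.16). Each r in Heart1 was also placed among those of all genes compared. In macrophages (3193 genes), Igf1 with Slc40a1 lay above 99.1% of them, Ier3 with Hmox1 above 99.4% and Fth1 with Ftl1 above 99.9%. Ninj1 lay above 92.4% with Hmox1 and 84.5% with Ftl1. The other macrophage genes ran from 28.4% (Ccl24) to 80.4% (Stab1). In fibroblasts (3770 genes), the genes ran from 88.8% (Spon1 with Cp) to 99.9% (Dpep1 with Cp).

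Macrophage-gated cells were then split into ranges of expression by genes that are not iron genes. Resident-type cells had a UMI of at least 2 of Folr2, Lyve1, Timd4 and F13a1 after thinning (15 of 37 cells in Heart1 and 138 of 208 in Heart2). Lipid-associated cells had at least 2 of Gpnmb, Trem2, Spp1 and Fabp5 (9 and 10 cells). Antigen-presenting cells had at least 2 of H2-Aa, H2-Ab1 and H2-Eb1, and 10 or more UMIs of these 3 together (20 and 119 cells). The ranges are not types and overlap: 4 and 52 resident-type cells were also in the antigen-presenting range. Of the 9 and 10 lipid-associated cells, 5 and 4 were also in the resident range, and 3 and 8 in the antigen-presenting range. Resident-type cells were deeper, with medians of 11008 and 10444 UMIs against 6799.5 and 7469.5 in the other macrophages. Lipid-associated cells had medians of 16765 against 7221 in Heart1 and 10436.5 against 9509.5 in Heart2. Antigen-presenting cells were shallower, with 6445 against 12395 and 8102 against 11554. Fth1 and Ftl1 rose with the log of total UMIs in macrophages (r of 0.54 and 0.60 in Heart1, 0.33 and 0.28 in Heart2). The part of depth in the ratios of these ranges was not tested.

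Resident-type macrophages had more Cd163, Slc40a1, Hmox1 and Blvrb RNA than the others in both libraries. Cd163 stood at 426 CPM in resident-type cells against 166 CPM in the others in Heart1 (ratio 2.56, 1.65 to 4.07). In Heart2 it stood at 561 against 39.6 CPM (14.2, 9.29 to 22.7). Hmox1 stood at 714 against 288 CPM in Heart1 (2.48, 1.77 to 3.5004) and at 443 against 211 CPM in Heart2 (2.10, 1.72 to 2.58). Blvrb stood at 612 against 371 CPM in Heart1 (1.65, 1.20 to 2.28) and at 682 against 323 CPM in Heart2 (2.11, 1.80 to 2.49).

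Slc40a1 had 25 UMIs in the resident-type cells of Heart1 against 1 in the others (ratio 27.1, 4.43 to 1111), and 281 against 30 in Heart2 (3.47, 2.38 to 5.24). Tfrc had 66 of its 67 Heart2 UMIs in resident-type cells (24.4, 4.24 to 980) and 1 UMI on each side in Heart1. Cp, low in macrophages as a class, had 113 against 5 UMIs in Heart2 (8.37, 3.48 to 26.3) and 9 against 3 in Heart1 (3.25, 0.810 to 18.6; 1.59 without the top cells, 0.182 to 19.0). Slc11a1 was level across this split, at 1.08 (0.611 to 1.92) in Heart1 and 0.977 (0.765 to 1.26) in Heart2. Ferritin ratios lay nearer 1 than those of Cd163, Slc40a1, Hmox1 and Blvrb: Fth1 had ratios of 1.31 and 1.07, and Ftl1 of 0.916 and 1.40. Without the top cell of each side the Heart1 Fth1 ratio was 1.04 (0.974 to 1.12). The ratio of Cd163, Hmox1, Blvrb and Slc40a1 was above 1 beyond counting error in both libraries.

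In lipid-associated cells Hmox1 and Cd163 were lower than in the other macrophages in both libraries. Hmox1 stood at 165 CPM in lipid-associated cells against 669 CPM in the others in Heart1 (ratio 0.246, 0.146 to 0.394), and at 89.4 against 397 CPM in Heart2 (0.225, 0.108 to 0.417). Cd163 had ratios of 0.117 (0.0421 to 0.265) and 0.496 (0.316 to 0.744). Blvrb had ratios of 0.850 (0.602 to 1.19) in Heart1 and 0.707 (0.517 to 0.947) in Heart2. Fth1 stood at 25567.5 against 9264 CPM in Heart1 (2.76, 2.61 to 2.92), and without the top cell of each side the ratio was 2.06. In Heart2 the Fth1 ratio was 1.05 (0.988 to 1.11), so the higher Fth1 level was seen in Heart1 and not in Heart2. The Ftl1 ratio was 1.93 in Heart1 and 1.09 in Heart2. Without the top cells the Heart2 ratios were below 1, at 0.845 (0.785 to 0.909) for Fth1 and 0.907 (0.849 to 0.968) for Ftl1. The range holds 9 and 10 cells.

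Antigen-presenting cells, which were shallower, had less Slc40a1 and less Fth1 than other macrophages in both libraries. Slc40a1 had 2 against 24 UMIs in Heart1 (ratio 0.115, 0.0132 to 0.465) and 88 against 223 in Heart2 (0.405, 0.313 to 0.521). Fth1 had ratios of 0.490 (0.461 to 0.522) and 0.790 (0.768 to 0.812), and the Heart1 ratio was 0.591 (0.550 to 0.635) without the top cell of each side. Blvrb had ratios of 0.686 (0.489 to 0.954) and 0.721 (0.641 to 0.810). The summed level of Hmox1 pointed in opposite directions, at 2.50 (1.81 to 3.47) in Heart1 and 0.722 (0.624 to 0.834) in Heart2. Without the top cell of each side the Heart1 ratio was 3.56 (2.03 to 6.52), from 47 against 18 UMIs. The share of thinned cells with Hmox1 was lower in antigen-presenting cells in both libraries, at 25% against 41.2% and 39.5% against 57.3%. Cd163 had ratios of 1.16 (0.766 to 1.74) and 0.428 (0.368 to 0.497).

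**Figure D4:**
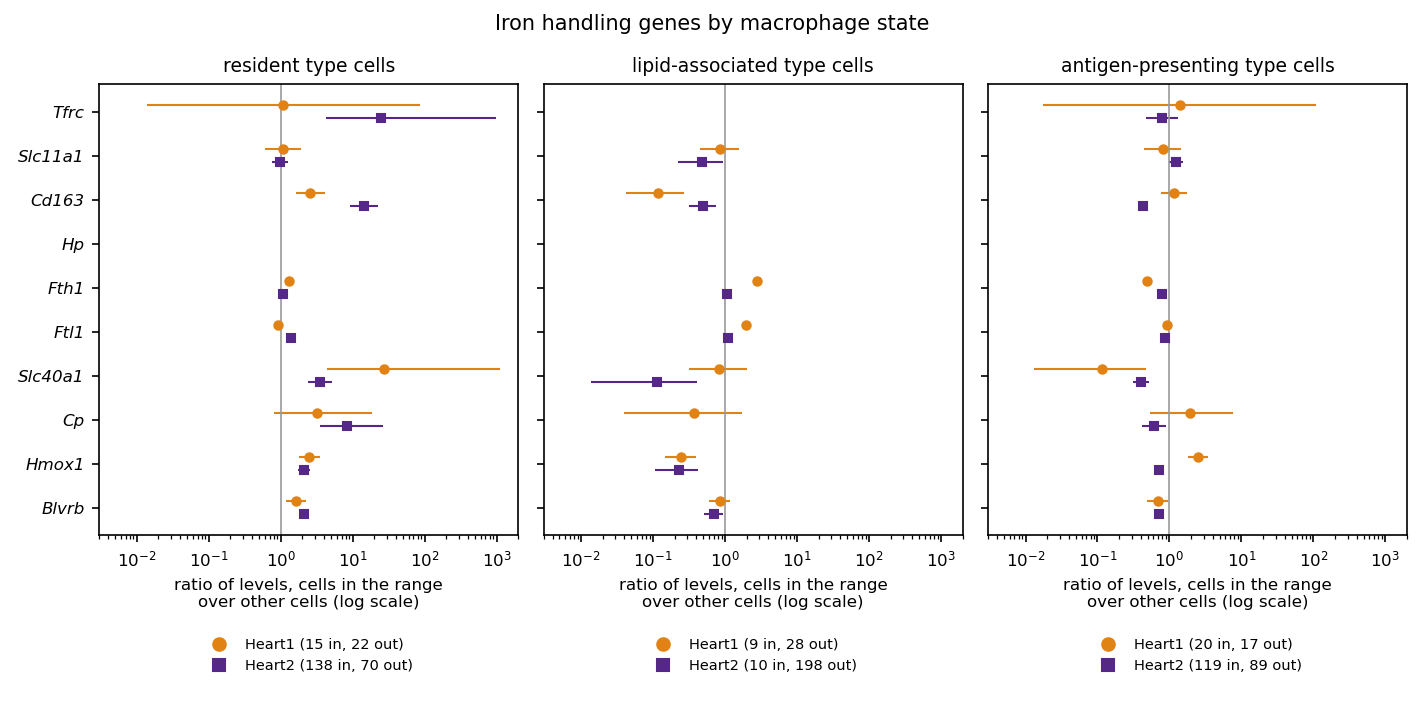
Ratio of the level of each iron gene in macrophages of a state range over the other macrophages (log axis), for Heart1 (orange circles) and Heart2 (purple squares), with 95% exact intervals. Genes with 0 UMIs on a side are not drawn. Cd163, Slc40a1, Hmox1 and Blvrb lie right of 1 in the resident panel and Hmox1 lies left of 1 in the lipid-associated panel, in both libraries.

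The sort was made on a p16 reporter, so the iron genes were also set beside the RNA of Cdkn2a, the gene of p16. A Cdkn2a UMI was found in 16 of 37 and 56 of 208 macrophages and in 72 of 206 fibroblasts of Heart1. The 7 such fibroblasts of Heart2 were too few to compare. A cell without a UMI may still use the gene, and cells with a UMI were deeper, with medians of 9832 against 6938 UMIs in Heart1 macrophages, 11280.0 against 9283 in Heart2 macrophages and 12347 against 11404 in Heart1 fibroblasts. The part of depth was not tested.

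The summed level of Hmox1 was lower in cells with Cdkn2a RNA in each of the 3 sets. It stood at 332 CPM in Heart1 macrophages with Cdkn2a against 639 CPM in those without (ratio 0.519, 0.370 to 0.722). In Heart2 macrophages it stood at 322 against 407 CPM (0.793, 0.674 to 0.931), and in Heart1 fibroblasts at 35.6 against 62.8 CPM (0.567, 0.378 to 0.835). Leaving out the top cell of each side gave 0.259, 0.721 and 0.619. With status read from thinned cells the intervals took in 1, at 2.06 (0.997 to 3.94), 0.806 (0.533 to 1.18) and 0.286 (0.0333 to 1.12). That split left 4 of 37, 35 of 208 and 36 of 206 cells with a Cdkn2a UMI, and in Heart1 macrophages it turned the direction. The share of unthinned cells with an Hmox1 UMI was higher with Cdkn2a RNA in the 3 sets. In macrophages it was 8 of 16 against 9 of 21 and 46 of 56 against 111 of 152. In Heart1 fibroblasts it was 24 of 72 against 33 of 134. In thinned cells the Heart1 shares were 3 of 4 against 9 of 33 macrophages and 2 of 36 against 15 of 170 fibroblasts. The thinned Heart2 share was 13 of 35 against 85 of 173.

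Fth1 was higher in the cells with Cdkn2a RNA in the same 3 sets, by small factors in 2 of them. The ratios were 1.90 (1.80 to 2.01) in Heart1 macrophages, 1.13 (1.10 to 1.17) in Heart2 macrophages and 1.12 (1.09 to 1.16) in Heart1 fibroblasts. Without the top cells the first was 1.44, and with status from thinned cells the Heart1 ratios were 0.966 (0.805 to 1.15) in macrophages and 1.01 (0.931 to 1.10) in fibroblasts. Ftl1 did not follow, with 0.879 (0.825 to 0.937), 1.05 (1.02 to 1.08) and 0.812 (0.777 to 0.847). Cd163 had ratios of 1.36 (0.904 to 2.06) and 1.41 (1.23 to 1.62) in macrophages. Cp in Heart1 fibroblasts stood at 192 against 286 CPM (0.672, 0.566 to 0.795), and with status from thinned cells the ratio was 0.625 with an interval that took in 1 (0.360 to 1.03). Blvrb ratios were 0.985, 1.02 and 0.972, with intervals that took in 1, but with status from thinned cells the Heart2 macrophage ratio was 0.709 (0.500 to 0.981).

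**Figure D5:**
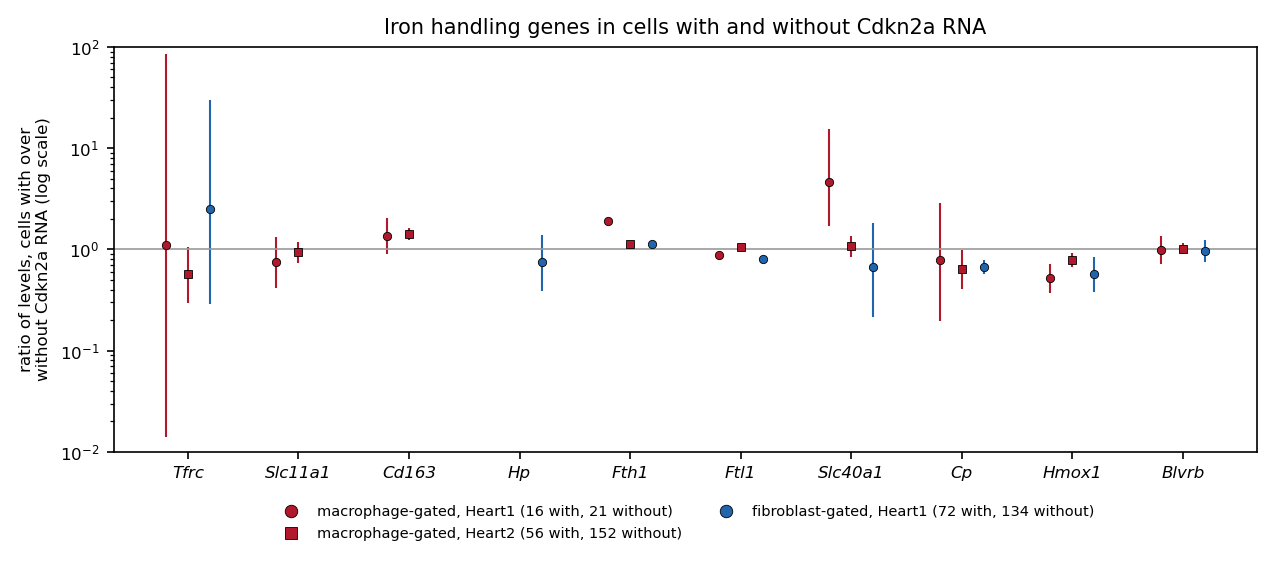
Ratio of the level of each iron gene in cells with over cells without a Cdkn2a UMI (log axis), for macrophages of Heart1 and Heart2 (red circles and squares) and fibroblasts of Heart1 (blue circles), with 95% exact intervals that cover counting error only. Genes with 0 UMIs on a side are not drawn. Hmox1 lies below 1 in the 3 sets, from 0.519 to 0.793, and Blvrb lies at 0.972 to 1.02.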

How the data were processed

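Heart cells were profiled with a 10x Genomics 3′ kit (v3), per the labels' protocols, and Cell Ranger 3.0.2 and build mm10 are named in the submitters' processing notes. The deposited values are the natural log of 1 plus UMIs per 10000 in 15247 genes of 1426 cells. All 4459440 values above 0 were whole multiples (tolerance 1e-06) of the lowest value of their cell, so UMIs were recovered. No label or header names the tool behind the normalization or the filters on cells. Heart1 held 3304045 UMIs (median 11352 per cell) and Heart2 10632723 (8886). Cells with 3 or more endothelial or lymphocyte markers were not gated. Doublets (scrublet in scanpy 1.11.5) were 9 of 266 and 3 of 1160 cells and were kept. In Heart2 the caller marked 0.259%, too few to count as having worked.

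UMIs were summed per library and class, and limma 3.58.1 (R 4.3.3) was run on log2(CPM + 5), with library as a block because both classes come from each library, a mean-variance trend, and genes of 10 CPM or more on average. The fit was tested on simulated sums with a fixed spread and no library effect. That setting does not probe the spread between these libraries or the weight of single cells. Calls were made at an adjusted p below 0.05. Correlations and ratios across cells have no test. Named genes are the 10 members, up to 3 called genes per role of the wider list with the same direction in both libraries, and the 5 genes most like Slc40a1, Hmox1 and Ftl1 in macrophages and Fth1 and Cp in fibroblasts. Of the genes so named, 1 is left out of the text. Hmox1 in fibroblasts was under the 10% share for that list. The members and lists were chosen with earlier results of these data known. Alternatives were other scaling, pseudocounts, filters, gate ratios, doublet removal, thinning, no block and single libraries. Leaving out the cell with most UMIs of a gene was added after seeing the data. Sequences and gene positions are from GENCODE M21 (GRCm38).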

Additional observations from a re-analysis of the deposited data

How the results depend on the processing

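The limma calls moved most with the filter. With a minimum mean of 50 CPM, 719 genes were higher and 953 lower of 3191 tested, because fewer genes were tested, and of the iron genes 7 were higher and 1 lower, with Tfrc and Hp filtered out. In the wider list 5 were then lower, and with no filter 16 were lower. The other counts stayed within 1.5 times, among them 1254 higher and 1764 lower with no replicate block (7 and 2 iron genes, 4 and 8 of the wider list) and 1030 and 1520 in thinned cells (7 and 2). Either library alone gives no test: at least 2-fold apart, 7 to 8 iron genes were higher and 2 to 2 lower. No iron gene changed direction between classes under any alternative run. Without the block the lost calls were those of Tfrc and, in the wider list, Trf, Ncoa4, Neo1 and Glrx5. Tfrc was under 10 CPM in thinned cells. Glrx5 was also not called with median-ratio scaling (limma adjusted p = 0.0704) or a pseudocount of 1 or 20 CPM (0.0776 and 0.0648). Without the top cells, Fth1 differed by 1.06 and Cp by -2.98. With 37 macrophages in Heart1, genes of few UMIs such as Tfrc, Cp and Slc40a1 have wide intervals there.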

Other observations

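The cells with at least 3 endothelial or lymphocyte markers, 20 in Heart1 and 10 in Heart2, entered no comparison. Their ferritin levels lay below those of both gated classes, with Fth1 at 3278 and 3989 CPM and Ftl1 at 1737 and 1558 CPM. Cp stood at 134 CPM in Heart1 (28 UMIs in 3 of 20 cells) and at 337 CPM in Heart2 (29 UMIs in 6 of 10 cells). Cd163, Slc11a1 and Hp had 0 UMIs in them, Slc40a1 had 1, and Tfrc had 4, all in 1 cell of Heart1.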
